A study of Homo sapiens with 18 samples.

Results

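Epithelial-mesenchymal transition (EMT) is the shift of cells from a sheet-like, tightly joined state to a loose, migratory one. In carcinoma cells it is driven by transcriptional repressors of the SNAI, ZEB and TWIST families, which switch off CDH1, the gene of the adherens junction protein E-cadherin, while the intermediate filament vimentin (VIM) and N-cadherin (CDH2) are its classical mesenchymal markers. The OVOL zinc finger proteins act the other way and are known as repressors of ZEB1. The 10 genes SNAI1, SNAI2, ZEB1, ZEB2, TWIST1, OVOL1, OVOL2, CDH1, CDH2 and VIM were followed here. They were taken by symbol from the 43236 rows of the count table, and all 10 were found and passed the filter on low counts.

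The cells were NCI-H1693, an established human line of non-small cell lung cancer that the labels describe as SMARCA4-deficient, a property shared by treated and control cells. PRT3789 is a degrader selective for SMARCA2, which can take the place of SMARCA4 as the motor subunit of the SWI/SNF complexes that move nucleosomes. The groups were PRT3789 at 50 nM or the solvent DMSO for 6, 48 or 72 h, with 3 libraries of poly(A) RNA in each of the 6 groups and a single cell line in all. Nothing in the labels says whether the libraries of a group came from separate cultures, so p-values measure the spread between these libraries, which may be technical.

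Library totals ran from 23154484 to 31094797 counts. Levels are given as CPM, read counts scaled to library size times its TMM scaling factor, which was 0.904 to 1.05. They are given with mean ± SD over 3 libraries, and differences as log2 fold changes (log2FC) ± standard error (SE). A gene was called at an adjusted p under 0.05 over all 16291 tested genes in edgeR. The line carried the markers of an epithelial cell: 5 epithelial markers (EPCAM, KRT8, KRT18, KRT19 and CDH1) summed to 4115 to 11008 CPM in every library. Blood cell markers summed to 1.01 to 3.19 CPM. Endothelial markers (PECAM1, VWF, KDR, CLDN5 and CDH5) summed to 0.373 to 3.82 CPM. In DMSO at 48 and 72 h most of this sum was CDH5, and in PRT3789 at those times the sum was at most 0.696 CPM. The sum of 5 fibroblast markers was 62.5 to 129 CPM, nearly all of it LUM, while the group means of PDGFRA, PDGFRB, DCN and COL6A3 were at most 1.06 CPM. In bulk RNA, fewer cells with a transcript and less transcript per cell cannot be told apart.

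Libraries of 6 h differed more within a group than later ones. The median SD of log2 CPM was 0.149 to 0.167 in the groups of 6 h and 0.0644 to 0.119 in the later ones. Deviations of a library from the mean of its time also followed transcript length, by Spearman correlations across 10893 genes, which do not count as replicates. Against the mean of 6 h, long transcripts were high in DMSO 6 h replicate 1 (0.616) and in replicates 1 (0.397) and 2 (0.595) of PRT3789 6 h. They were low in the 3 remaining libraries of that time (-0.474 to -0.608). Against the mean of all 18 libraries, DMSO 6 h replicate 1 was at -0.008 and PRT3789 6 h replicates 1 and 2 at -0.347 and -0.108. At 48 h the trend went with the arm, at 0.189 to 0.313 in PRT3789 and at 0.0118, -0.407 and -0.313 in DMSO. Length and the log2FC of PRT3789 against DMSO correlated at 0.237, 0.292 and 0.0174 at 6, 48 and 72 h. The value was 0.608 for DMSO 72 against 48 h and -0.548 for the change of the PRT3789 effect from 48 to 72 h. The genes described here differ much in length, from 1.583 kb for the canonical transcript of OVOL2 to 9.265 kb for ZEB2, so values with the length trend removed are given where they change a call.

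Sequences that bear on these genes come from RefSeq (GRCh38.p14). Promoter windows are described for 4 of the 10 genes, namely ZEB1, ZEB2, CDH2 and VIM. No window was at hand for SNAI1, TWIST1, OVOL1, OVOL2 or CDH1. SNAI2 was left out by choice and not for want of a match, so nothing is said here about its promoter. The 250 bases before each start were searched on both strands for CAGGTG, the E-box that SNAI and ZEB proteins bind, and for the AP-1 motif TGANTCA, which do not overlap each other in these windows. Of 35116 windows of this length over all genes, 17.5% held CAGGTG and 6.57% held TGANTCA. Among 7 annotated starts of ZEB1, 2 windows held CAGGTG, and none did for ZEB2, VIM or the 2 starts of CDH2. TGANTCA was in 1 of the windows of CDH2, 102 bases before the start, and in none of the others. The windows of ZEB1 and VIM are shown because both transcripts were called higher in PRT3789 at 48 h, with the E-box in capitals. The first ZEB1 window is chr10:31318167-31318416 (plus strand), with its E-box beginning 57 bases before the start, the second is chr10:31318966-31319215 (plus strand), with matches 242 and 85 bases before the start (the former on the minus strand), and that of VIM is chr10:17227991-17228240 (plus strand). The letters alone do not show that a protein binds there.
ZEB1, first start: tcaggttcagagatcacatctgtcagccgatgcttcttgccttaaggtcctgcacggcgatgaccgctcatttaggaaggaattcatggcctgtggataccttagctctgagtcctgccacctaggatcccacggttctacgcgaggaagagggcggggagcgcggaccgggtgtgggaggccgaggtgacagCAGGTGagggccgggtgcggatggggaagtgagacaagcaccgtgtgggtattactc
ZEB1, a later start: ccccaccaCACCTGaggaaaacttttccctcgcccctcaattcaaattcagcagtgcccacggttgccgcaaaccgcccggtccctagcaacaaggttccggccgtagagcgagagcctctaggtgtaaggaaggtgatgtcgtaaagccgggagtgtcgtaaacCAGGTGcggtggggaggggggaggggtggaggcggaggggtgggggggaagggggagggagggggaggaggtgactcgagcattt
VIM: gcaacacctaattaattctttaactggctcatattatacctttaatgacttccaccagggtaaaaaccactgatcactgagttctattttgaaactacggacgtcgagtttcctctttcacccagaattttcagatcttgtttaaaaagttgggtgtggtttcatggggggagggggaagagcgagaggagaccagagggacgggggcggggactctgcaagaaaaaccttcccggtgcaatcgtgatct

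The miR-200 family and miR-205 are known to repress ZEB1 and ZEB2, and the poly(A) libraries measure only their host transcripts. The mature forms are shown with the seed (bases 2 to 8) in capitals, which groups miR-200c with miR-200b and miR-429, and miR-141 with miR-200a. MIR200CHG is the host transcript of miR-200c and miR-141, and MIR205HG that of miR-205.
hsa-miR-200c-3p: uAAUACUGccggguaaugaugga
hsa-miR-200b-3p: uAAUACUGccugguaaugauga
hsa-miR-429: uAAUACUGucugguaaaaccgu
hsa-miR-141-3p: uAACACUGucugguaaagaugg
hsa-miR-200a-3p: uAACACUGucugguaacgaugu
hsa-miR-205-5p: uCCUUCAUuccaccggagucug

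SNAI2, CDH1 and OVOL2 were lower in PRT3789 than in DMSO at 48 and 72 h, ZEB1 and VIM were called higher at 48 h alone and TWIST1 at 72 h alone. At 6 h 2 of the 10 genes were called lower (SNAI2 and OVOL1) and none higher, where 4.33% of all tested genes were called, 3.04% lower and 1.28% higher. None of the 10 was higher at 6 h with an unadjusted p under 0.05 in edgeR, nor called higher by DESeq2 or limma-voom. At 48 h 3 were called lower (SNAI2, OVOL2 and CDH1) and 2 higher (ZEB1 and VIM), where 42.1% of all tested genes were called, 20.9% lower and 21.2% higher. By 72 h 3 were called lower (SNAI2, OVOL2 and CDH1) and 1 higher (TWIST1), where 43.4% of all tested genes were called, 22% lower and 21.3% higher. The counts at 48 and 72 h are thus near the share of all genes. The libraries of PRT3789 and DMSO did not overlap in 2 of the 10 genes at 6 h, 5 at 48 h and 6 at 72 h, as was so for 14.7%, 56.2% and 61.9% of all tested genes.

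**Figure D1:**
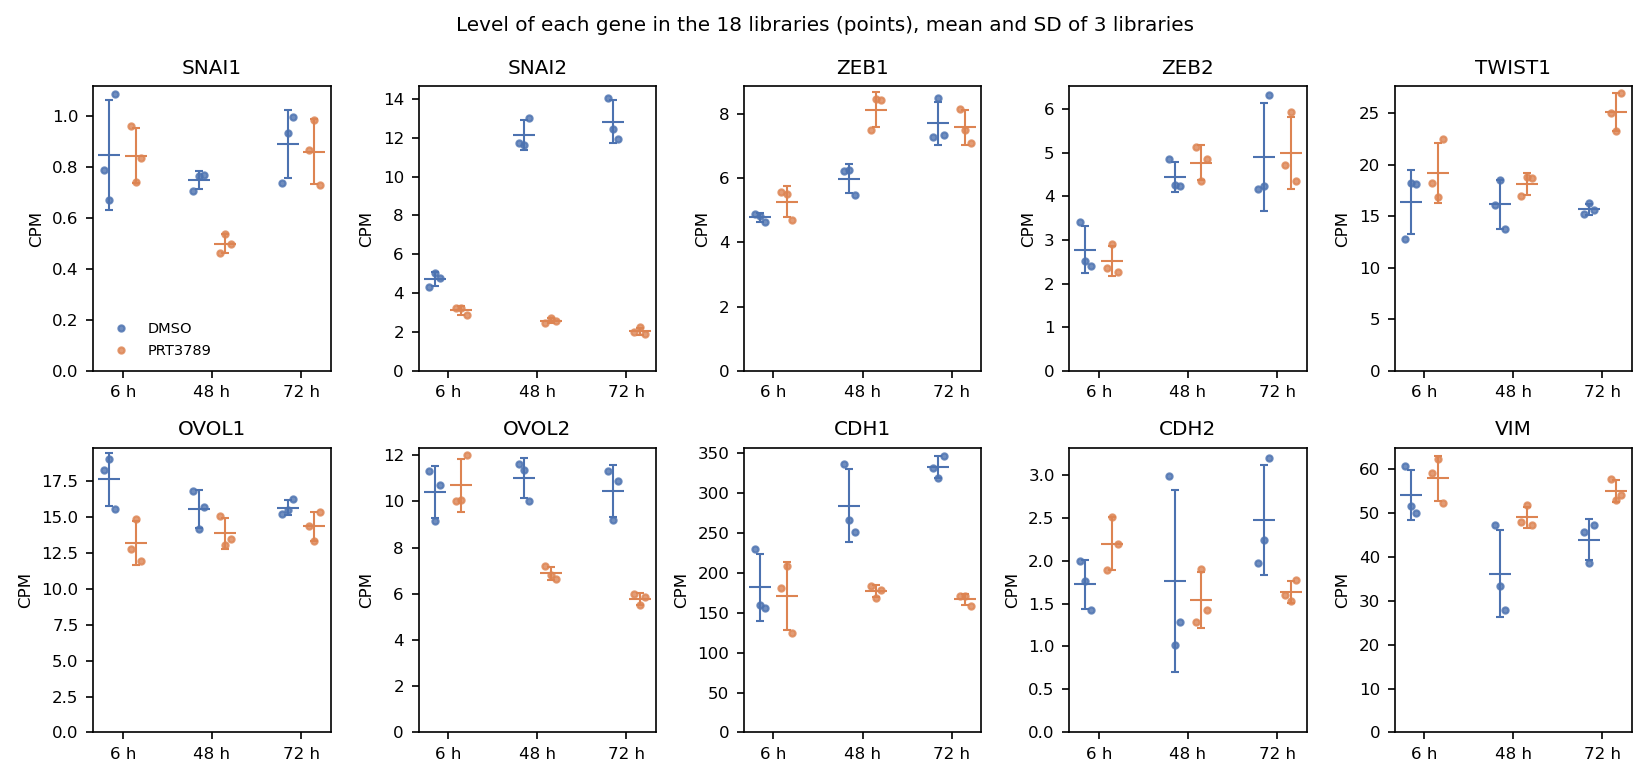
Level of the 10 genes in CPM (vertical axis, from 0) at 6, 48 and 72 h. Points are single libraries of DMSO (blue) and PRT3789 (orange), horizontal marks and bars are mean and SD of 3 libraries. SNAI2 was at 11.6 to 14.0 CPM in the DMSO libraries of 48 and 72 h and at 1.91 to 2.73 CPM in those of PRT3789.

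SNAI2 (SLUG, chromosome 8, 48917598 to 48921429) is a zinc finger repressor of CDH1 and of other epithelial genes. Its level in DMSO was 4.31, 5.02 and 4.78 CPM in the libraries of 6 h, 11.7, 11.6 and 13.0 by 48 h and 14.0, 12.4 and 11.9 by 72 h. In PRT3789 it was 3.26, 3.22 and 2.86 CPM at 6 h. It then stood at 2.49, 2.73 and 2.55 CPM by 48 h and 1.98, 2.25 and 1.91 by 72 h. At each time every PRT3789 library lay below every DMSO library. At 6 h SNAI2 was 1.51-fold lower (log2FC -0.60 ± 0.11, adjusted p = 0.0032). The gap was 4.67-fold at 48 h (log2FC -2.22 ± 0.11, adjusted p = 3.47e-11) and reached 6.25-fold by 72 h (log2FC -2.64 ± 0.11, adjusted p = 3.75e-12). The effect was larger at 48 h than at 6 h, with a change of -1.63 ± 0.16 in log2FC (adjusted p = 8.39e-07). The controls moved as well: SNAI2 rose 2.57-fold in DMSO between 6 and 48 h (adjusted p = 4.47e-08). In PRT3789 the difference between 48 and 6 h was -0.26 ± 0.12 (adjusted p = 0.0719). Of the alternatives run, a fit of the 6 h libraries alone ended the 6 h call of SNAI2 (log2FC -0.58, adjusted p = 0.153).

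SNAI1 (SNAIL, chromosome 20, 49982980 to 49988886), the other SNAI repressor, was close to the limit of measurement with 13 to 30 counts per library. At 48 h it was at 0.708, 0.766 and 0.771 CPM in DMSO and at 0.462, 0.539 and 0.497 in PRT3789. These groups of 48 h did not overlap, but SNAI1 was not called (log2FC -0.58 ± 0.25, adjusted p = 0.0809). At 6 h it was at 0.849 ± 0.215 CPM in DMSO and 0.846 ± 0.109 in PRT3789, and at 72 h at 0.890 ± 0.134 and 0.862 ± 0.128 (SD, n = 3). The log2FC was 0.00 ± 0.24 (adjusted p = 0.997) and -0.05 ± 0.23 (adjusted p = 0.891).

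TWIST1 (chromosome 7, 19113047 to 19117636) encodes a basic helix-loop-helix factor that promotes EMT. At 72 h it was at 15.2, 16.3 and 15.6 CPM in DMSO and at 25.1, 23.3 and 27.0 in PRT3789. All PRT3789 libraries of 72 h lay above all DMSO libraries, and TWIST1 was 1.60-fold higher (log2FC 0.68 ± 0.13, adjusted p = 0.000494). Earlier the groups overlapped: at 6 h TWIST1 was at 16.4 ± 3.11 CPM in DMSO and 19.2 ± 2.93 in PRT3789 (0.23 ± 0.14, adjusted p = 0.492), and at 48 h at 16.2 ± 2.39 and 18.2 ± 1.06 (0.17 ± 0.14, adjusted p = 0.338). With the length trend removed the 48 h difference was called (log2FC 0.25, adjusted p = 0.0418). The effect was not shown to change between 48 and 72 h (change 0.51 ± 0.19, adjusted p = 0.436).

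ZEB1 (chromosome 10, 31318417 to 31529804), a zinc finger homeobox repressor of CDH1, was called higher at 48 h alone. It was then at 6.22, 6.26 and 5.47 CPM in DMSO and at 7.50, 8.45 and 8.42 in PRT3789, without overlap. This is 1.36-fold (log2FC 0.44 ± 0.10, adjusted p = 0.0023). With the length trend removed the log2FC was 0.31 (adjusted p = 0.0203). At 72 h ZEB1 was at 7.29, 8.48 and 7.35 CPM in DMSO and 8.15, 7.49 and 7.10 in PRT3789, and these groups overlapped (-0.02 ± 0.10, adjusted p = 0.879). In DMSO the difference between 72 and 48 h was not called (0.36 ± 0.10, adjusted p = 0.111), and was 0.23 with the length trend removed (adjusted p = 0.262). At 6 h the means were 4.78 ± 0.133 and 5.26 ± 0.482 CPM (0.14 ± 0.11, adjusted p = 0.661). The change of the effect from 48 to 72 h was -0.46 ± 0.14, with an unadjusted p of 0.00525 and an adjusted p of 0.349. With the length trend removed that change was -0.34 (adjusted p = 0.447).

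ZEB2 (chromosome 2, 144384081 to 144520119), its close relative, was at 2.26 to 3.40 CPM in the libraries of 6 h and at 4.15 to 6.32 in those of 48 and 72 h. PRT3789 and DMSO overlapped at each time, with log2FC -0.15 ± 0.20, 0.11 ± 0.18 and 0.03 ± 0.17 at 6, 48 and 72 h (adjusted p 0.806, 0.656 and 0.92). ZEB2 rose with culture time in both arms, 1.59-fold between 6 and 48 h in DMSO (adjusted p = 0.0098) and 1.90-fold in PRT3789 (adjusted p = 0.00041). With the length trend removed the rise in PRT3789 was 0.58 on the log2 scale in place of 0.93 (adjusted p = 0.00192), and that in DMSO was 0.49 in place of 0.67 (adjusted p = 0.0125).

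OVOL2 (chromosome 20, 18024152 to 18059188) maintains epithelial cells by repressing mesenchymal genes. In DMSO it was at 11.3, 9.17 and 10.7 CPM at 6 h, 11.6, 11.4 and 10.0 by 48 h and 11.3, 9.19 and 10.9 by 72 h, a single range over time. PRT3789 libraries were at 10.0, 10.1 and 12.0 CPM at 6 h, 7.22, 6.80 and 6.66 by 48 h and 6.00, 5.51 and 5.84 by 72 h. The 2 arms overlapped at 6 h and lay apart later. The log2FC of OVOL2 was 0.04 ± 0.11 at 6 h (adjusted p = 0.912) and -0.68 ± 0.11 at 48 h (1.60-fold lower, adjusted p = 8.28e-05). By 72 h it was -0.86 ± 0.11 (1.81-fold lower, adjusted p = 6.17e-06). The effect changed between 6 and 48 h by -0.72 ± 0.15 (adjusted p = 0.00292). Over time OVOL2 was 1.55-fold lower in PRT3789 at 48 than at 6 h (log2FC -0.63, adjusted p = 0.000108; -0.39 with the length trend removed, adjusted p = 0.011), and did not pass the test in DMSO (0.08 ± 0.11, adjusted p = 0.586).

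OVOL1 (chromosome 11, 65787063 to 65797214), the relative of OVOL2, was called at 6 h alone. It was at 18.3, 19.1 and 15.6 CPM in DMSO and at 12.8, 14.9 and 11.9 in PRT3789, without overlap, which is 1.34-fold lower (log2FC -0.42 ± 0.10, adjusted p = 0.0248). At 48 h OVOL1 was at 15.6 ± 1.32 CPM in DMSO and 13.9 ± 1.09 in PRT3789 (log2FC -0.16 ± 0.10, adjusted p = 0.219). The 72 h means were 15.7 ± 0.529 and 14.4 ± 1.00 CPM (log2FC -0.12 ± 0.10, adjusted p = 0.354). The effect on OVOL1 was not shown to change between 6 and 48 h (change 0.26, adjusted p = 0.252). The 6 h call of OVOL1 ended without DMSO replicate 1 (adjusted p = 0.0622), DMSO replicate 2 (0.152), PRT3789 replicate 1 (0.1) or PRT3789 replicate 3 (0.109), with total counts (0.0838) and with the 6 h libraries alone (0.368). The log2FC in these fits was -0.34 to -0.41.

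**Figure D2:**
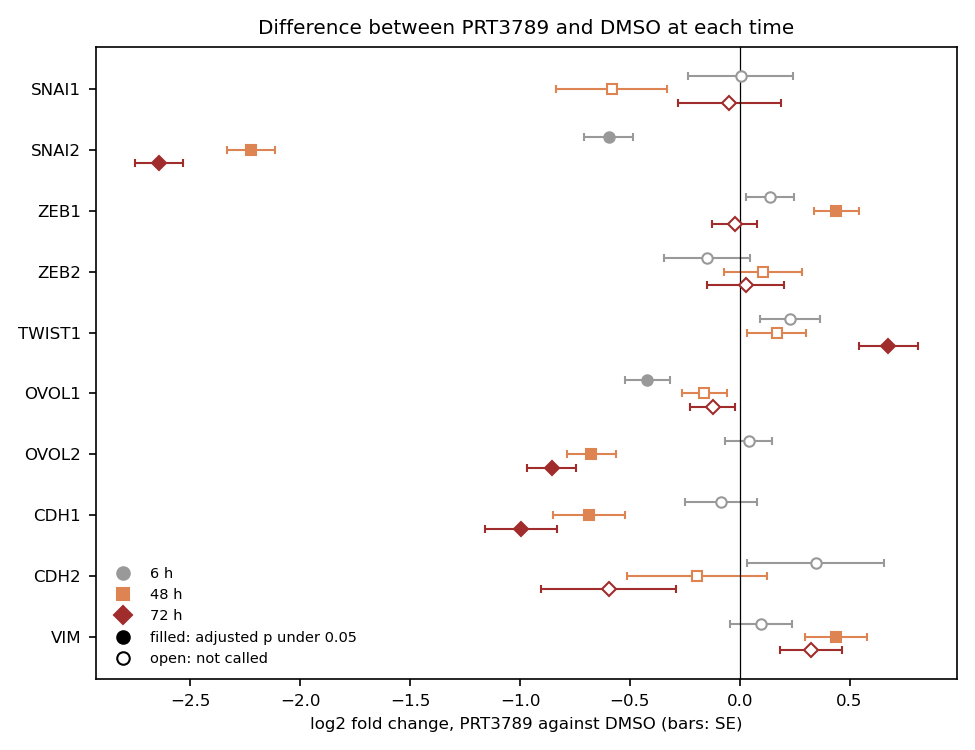
Log2 fold change of PRT3789 against DMSO for each gene (horizontal axis, bars are SE) at 6 h (circles), 48 h (squares) and 72 h (diamonds), with filled symbols for adjusted p under 0.05. SNAI2 moved from -0.60 at 6 h to -2.64 at 72 h, farther than the others.

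CDH1 (E-cadherin, chromosome 16, 68737292 to 68835537) was lower in PRT3789 at 48 and 72 h. DMSO libraries of 48 h were at 336, 266 and 251 CPM and those of PRT3789 at 183, 168 and 179. The 72 h libraries were at 332, 319 and 346 CPM in DMSO and 171, 171 and 159 in PRT3789. At both times the arms lay apart. The log2FC of CDH1 was -0.69 ± 0.16 at 48 h (1.61-fold lower, adjusted p = 0.00273). It was -0.99 ± 0.16 at 72 h (1.99-fold lower, adjusted p = 9.3e-05). At 6 h the libraries were at 230, 159 and 156 CPM in DMSO and at 181, 208 and 125 in PRT3789, and the groups overlapped (-0.09 ± 0.16, adjusted p = 0.871). The 6 h libraries in which long transcripts were high against the mean of that time were DMSO replicate 1 and PRT3789 replicates 1 and 2. They had 181 to 230 CPM of CDH1, and the other 3 had 125 to 159. The 5 epithelial markers, CDH1 among them, summed to 10210 to 11008 CPM in DMSO and 4659 to 4906 in PRT3789 at 48 h, and to 9147 to 9900 and 4115 to 4330 at 72 h. With the length trend removed the log2FC of CDH1 was -0.09 at 6 h, -0.77 at 48 h (adjusted p = 8.4e-05) and -0.99 at 72 h (adjusted p = 5.14e-06). Most of the summed epithelial level was KRT8 and KRT18. All 5 markers were called lower at 48 h, where 20.9% of all tested genes were. At 72 h CDH1, KRT8 and KRT18 were called lower, where 22% of all tested genes were, and EPCAM and KRT19 were not called. The part of the falls of other epithelial markers in the CDH1 values was not tested.

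The comparisons of times share their libraries with those of PRT3789 and DMSO. In DMSO CDH1 rose 1.57-fold between 6 and 48 h (log2FC 0.65 ± 0.16, adjusted p = 0.00531), while in PRT3789 the difference was 0.05 ± 0.16 (adjusted p = 0.821). The change of the PRT3789 effect from 6 to 48 h was -0.60 ± 0.23 and was not called (adjusted p = 0.0821). It was called without DMSO 6 h replicate 1 (-0.84, adjusted p = 0.00811), without PRT3789 6 h replicate 3 (-0.80, adjusted p = 0.00876), with the length trend removed (-0.68, adjusted p = 0.00982) and in DESeq2 (-0.63, adjusted p = 0.0417).

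**Figure D3:**
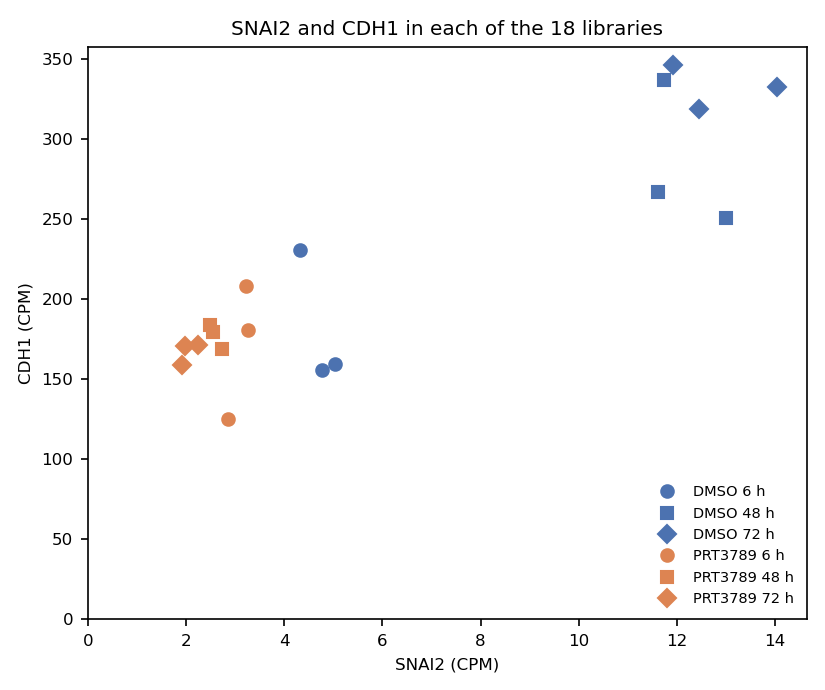
SNAI2 (horizontal axis) against CDH1 (vertical axis), both in CPM from 0, in each of the 18 libraries, with DMSO in blue, PRT3789 in orange and a symbol for each time. The DMSO libraries of 48 and 72 h stand apart, with SNAI2 at 11.6 CPM or more and CDH1 at 251 CPM or more, from the other 12, with SNAI2 at most at 5.02 CPM and CDH1 at most at 230 CPM.

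CDH2 (N-cadherin, chromosome 18, 27932879 to 28177130) had 30 to 96 counts per library and was not called at any time. At 72 h it was at 1.97, 2.24 and 3.19 CPM in DMSO and at 1.60, 1.53 and 1.77 in PRT3789, without overlap (log2FC -0.60 ± 0.31, adjusted p = 0.128). A fit of the 72 h libraries alone called CDH2 (-0.61, adjusted p = 0.0234). At 48 h DMSO replicate 1 was at 2.98 CPM and the other DMSO libraries at 1.02 and 1.29, so the log2FC of CDH2 went from -0.19 ± 0.32 to 0.41 without that library (adjusted p 0.654 and 0.227). At 6 h the value was 0.34 ± 0.31 (adjusted p = 0.706).

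VIM (vimentin, chromosome 10, 17228241 to 17237593) was higher in PRT3789 at 48 h. It was at 47.3, 33.5 and 27.8 CPM in DMSO and at 48.0, 51.7 and 47.2 in PRT3789. The lowest PRT3789 library was below the highest DMSO library, so the groups overlapped, and VIM was 1.35-fold higher (log2FC 0.44 ± 0.14, adjusted p = 0.0197). At 72 h it was at 45.8, 38.6 and 47.3 CPM in DMSO and at 57.7, 53.0 and 54.2 in PRT3789, apart but not called (0.32 ± 0.14, adjusted p = 0.0726). The effect on VIM was not shown to change between 48 and 72 h (change -0.11, adjusted p = 0.866). At 6 h the means were 54.1 ± 5.71 and 57.9 ± 5.17 CPM (0.10 ± 0.14, adjusted p = 0.825). VIM fell in DMSO between 6 and 48 h (log2FC -0.58 ± 0.14, adjusted p = 0.0042).

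The VIM call at 48 h was kept in 2 of 6 fits with a library left out, with log2FC from 0.28 to 0.67. It ended without DMSO 48 h replicate 2 (adjusted p = 0.0943), DMSO 48 h replicate 3 (log2FC 0.28, adjusted p = 0.111), PRT3789 48 h replicate 1 (0.0529) or PRT3789 48 h replicate 2 (0.0806), and with the 48 h libraries alone (0.085), and VIM was at 0.67 without DMSO 48 h replicate 1. At 72 h VIM was called in a fit of that time alone (0.31, adjusted p = 0.000671) and with total counts (0.38, adjusted p = 0.0488).

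Per kilobase of the canonical transcript, CDH1 was the most abundant of the 10 genes in each group and VIM the next. In DMSO at 72 h CDH1 was at 69.1 ± 2.85 CPM per kb, VIM at 20.4 ± 2.16, TWIST1 at 9.64 ± 0.329, OVOL2 at 6.61 ± 0.707, SNAI2 at 5.88 ± 0.506, OVOL1 at 5.24 ± 0.177 and ZEB1 at 1.30 ± 0.114. CDH2 (0.615 ± 0.159), ZEB2 (0.529 ± 0.133) and SNAI1 (0.522 ± 0.0789) followed. Less than the summed SD lay between OVOL2 and SNAI2, SNAI2 and OVOL1, CDH2 and ZEB2, and ZEB2 and SNAI1. In PRT3789 at 72 h the order was CDH1 (34.7 ± 1.43 CPM per kb), VIM (25.5 ± 1.14), TWIST1 (15.4 ± 1.13), OVOL1 (4.81 ± 0.335), OVOL2 (3.66 ± 0.158), ZEB1 (1.28 ± 0.0902) and SNAI2 (0.938 ± 0.0809). In that group CDH1 was thus 34.7 against 25.5 for VIM, and SNAI2 lay below ZEB1, while in DMSO it lay above it. ZEB2 (0.539 ± 0.0887), SNAI1 (0.505 ± 0.0752) and CDH2 (0.407 ± 0.0313) were again last, each less than the summed SD from the next. CDH1 and VIM at 6 h in PRT3789 also differed by less than their summed SD (35.6 ± 8.79 and 26.9 ± 2.40).

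Levels in DMSO also changed over the days of culture. Between 6 and 48 h SNAI2, CDH1, ZEB1 and ZEB2 rose and VIM fell, where 17.1% of all tested genes rose and 20.1% fell, 37.2% in all. The libraries of these times lay apart in 5 of the 10 genes, against 39.4% of all genes. ZEB1 rose 1.25-fold (log2FC 0.32 ± 0.11, adjusted p = 0.0265). Across genes, length and the log2FC of this comparison had a Spearman correlation of 0.399. The call of ZEB1 ended with the length trend removed (0.24, adjusted p = 0.101), without a filter (0.0827), and on leaving out replicate 3 of the 6 h libraries (0.0678) or replicate 1 (0.0821) or 2 (0.0659) of the 48 h libraries. Between 48 and 72 h in DMSO none of the 10 was called by edgeR, DESeq2 or limma-voom and 1 (ZEB1) had an unadjusted p under 0.05, with 0.54% of all genes called, 0.387% higher and 0.153% lower. In ZEB1 alone of the 10 these libraries lay apart, against 30.1% of all genes.

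In PRT3789 between 6 and 48 h ZEB1 (1.54-fold, adjusted p = 7.01e-05) and ZEB2 rose, and OVOL2 and SNAI1 fell, where 28% of all genes rose and 28.8% fell, 56.7% in all. With the length trend removed the rise of ZEB1 was 0.43 on the log2 scale in place of 0.63 (adjusted p = 0.00184). Libraries lay apart in 6 of the 10, against 63.4% of all genes. SNAI1 fell 1.69-fold (log2FC -0.76 ± 0.25, adjusted p = 0.0161). With the length trend removed SNAI1 was not called (-0.54, adjusted p = 0.0905), nor was it without a filter (0.066), without PRT3789 6 h replicate 1 (0.0611) or without PRT3789 48 h replicate 1 (0.0514). From 48 to 72 h in PRT3789 none of the 10 was called by edgeR or limma-voom and 1 (TWIST1, adjusted p = 0.0361) by DESeq2, with 1.44% of all genes called in edgeR, 0.994% higher and 0.448% lower. Libraries lay apart in 5 of the 10, against 30.4% of all genes. In edgeR 4 of them had an unadjusted p under 0.05: SNAI1, SNAI2, TWIST1 and OVOL2. The change of the PRT3789 effect from 48 to 72 h was called in none of the 10 by edgeR, DESeq2 or limma-voom, and in 0% of all genes by edgeR, with 3 of the 10 at an unadjusted p under 0.05 (SNAI2, ZEB1 and TWIST1). The change from 6 to 48 h was called in 2 of the 10, SNAI2 and OVOL2, both towards lower values, against 19.2% of all genes, 10.4% towards lower and 8.83% towards higher values.

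The genes most like each of the 10 were sought over the 18 libraries by Pearson's r of log2 CPM among 10917 genes. The libraries share treatment, time and length trend, so r is a description. For SNAI2 they were F3 (tissue factor, r = 0.994), PRR5L (0.983) and GDA (0.981), and F3 went from 76.0 to 51.1 CPM at 6 h, 131 to 47.2 at 48 h and 145 to 42.5 at 72 h. For CDH1 they were DOCK9 (0.980), the amino acid transporter gene SLC7A5 (0.977) and ABLIM1 (0.974). At 48 h SLC7A5 was at 568 CPM in the controls and 244 with the degrader. OVOL2 was followed most closely by CYP24A1 (0.957), the long non-coding RNA UCA1 (0.957) and ME3 (0.956). UCA1 had a far larger gap than OVOL2, falling from 80.2 CPM to 5.18 at 72 h.

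For TWIST1 the nearest were YIF1A (0.924), U2AF1L4 (0.897) and MKNK1 (0.878), and for VIM RNASEH1 (0.893), FAM222A (0.883) and SNX15 (0.878). ZEB1 was nearest to HDAC10 (0.946), WWC2 (0.941) and ATM (0.939), and ZEB2 to NORAD (0.963), GOLGB1 (0.961) and KDM7A (0.960). The nearest gene of CDH2 was SOD2 (0.890), with an r close to that of RNASEH1 for VIM. OVOL1 (MTIF2, 0.792) and SNAI1 (PRKAR1B, 0.756) had looser nearest genes. CDH2 and SNAI1 are the scarcest per library of these genes. None of the 10 genes was itself in the search.

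Other genes of the same programme were followed as 7 lists, each described by its counts beside the share of all genes (42.1% at 48 h, 43.4% at 72 h) and the median log2FC of all genes, which was -0.01, 0.01 and 0.01 at 6, 48 and 72 h. Mesenchymal genes were lower at the later times. Of 20 tested among 22, 12 fell and 3 rose at 48 h and the same numbers at 72 h, with a median log2FC of -1.51 and -1.22. SPARC, a matricellular protein gene, fell from 298 ± 19.4 to 46.7 ± 3.48 CPM at 48 h and from 275 ± 13.5 to 29.1 ± 2.43 at 72 h (log2FC -2.68 and -3.24, adjusted p 3.8e-13 and 5.76e-14). TAGLN, an actin-binding protein gene, was at -2.72 at 72 h, the matrix protease MMP2 at -2.01 and -2.50 and the collagen cross-linking enzyme LOXL2 at -1.97 and -2.60. The summed fibroblast markers, nearly all LUM, were also lower, by less than the median of this list. They were at 84.0 to 112.6 CPM in DMSO and 62.5 to 70.7 in PRT3789 at 48 h. At 72 h they were at 97.8 to 107.0 and 80.3 to 89.3 CPM. The part of these markers in the fall of the list was not tested. The 3 that rose, named after their values were seen, were COL3A1 (2.83 and 3.28), POSTN (0.86 and 2.00) and CALD1 (0.39 and 0.48). At 6 h none of the 20 was called by edgeR, 1 each by DESeq2 and limma-voom, and 4 had an unadjusted p under 0.05.

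Epithelial genes that EMT repressors are known to switch off were lower too. Of 23 genes 15 fell and 4 rose at 48 h, and 15 fell and 5 rose at 72 h, with medians of -0.44 and -0.47. CLDN4, a tight junction claudin, fell at each time, from 545 ± 46.2 to 260 ± 4.19 CPM at 6 h and from 579 ± 25.6 to 219 ± 4.05 at 72 h (log2FC -1.07, -1.33 and -1.40, adjusted p 6.18e-08, 1.84e-10 and 7.57e-11). The membrane protease gene ST14 was at -0.81 and -0.86 at 48 and 72 h, while LSR, a tricellular junction gene, rose (0.75 and 0.82). At 6 h 4 of the 23 fell and none rose, where 3.04% of all genes fell, and 2 fell with the 6 h libraries alone.

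Factors of the epithelial state were split. Of 15 tested among 17, 6 rose and 4 fell at 48 h and 5 rose and 4 fell at 72 h, with medians of 0.10 and -0.08. KLF4, a zinc finger factor, rose from 11.6 ± 1.33 to 40.6 ± 1.80 CPM at 48 h (log2FC 1.81, adjusted p = 1.25e-10) and was at 1.62 at 72 h, and the splicing regulator ESRP2 rose (0.59 and 0.37). GRHL3, a grainyhead factor, fell (-0.70, -1.92 and -1.89 at 6, 48 and 72 h), as did the ETS factor ELF3 (-1.28, -0.74 and -0.86). These were the 2 called at 6 h, where 4.33% of all genes were called. A fit of the 6 h libraries alone ended the 6 h call of GRHL3 (adjusted p = 0.058). MIR205HG, named after its values were seen, had 13 to 26 counts per library in DMSO at 48 h and 0 to 3 in PRT3789, and 3 to 14 against 0 to 1 at 72 h (adjusted p = 0.000329 and 0.00278). MIR200CHG had 1 to 9 counts in the 18 libraries and did not pass the filter on low counts.

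Other factors that induce EMT were called in both directions, at about the share of all genes. Of 10 tested among 15, 2 rose and 2 fell at 48 h and 2 rose and 3 fell at 72 h, with medians of 0.16 and -0.09. Of all tested genes 21.2% rose and 20.9% fell at 48 h, and 21.3% rose and 22% fell at 72 h. SOX4 rose from 149 ± 23.9 to 297 ± 20.2 CPM at 48 h and from 176 ± 1.44 to 371 ± 15.9 at 72 h (log2FC 1.00 and 1.07, adjusted p 2.64e-05 and 1.01e-05), and RUNX2, the Runt factor of bone, fell (-2.46 and -3.00, adjusted p 8.16e-09 and 5.23e-10). The E proteins TCF3 (-0.32 and -0.33) and, at 72 h, TCF4 (-0.39) fell. At 6 h none was called by edgeR or limma-voom and 1 by DESeq2, and 2 had an unadjusted p under 0.05.

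Other cadherins were lower or not called, with 1 exception. Of 9 tested among 19, 5 fell at 48 h and none rose, and at 72 h 4 fell and 1 rose, with medians of -0.74 and -0.55. CDH3 (P-cadherin) fell from 60.5 ± 6.54 to 30.4 ± 1.72 CPM at 48 h (log2FC -0.99, adjusted p = 7.32e-07) and was at -1.01 at 72 h. CDH5 (VE-cadherin), otherwise known from endothelium, had 54 to 83 counts per library in DMSO at 48 h and 0 to 1 in PRT3789, and 64 to 91 against 0 to 2 at 72 h (adjusted p 1.6e-07 and 4.86e-08). CDH24 was at -0.74 and -0.89 and CDH23 at -1.79 and -2.40. The cadherin that rose, CDH4, was at 0.99 and is named after its value was seen. At 6 h no cadherin of this list was called by edgeR, DESeq2 or limma-voom, and none had an unadjusted p under 0.05.

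Catenins and adaptors link cadherins to actin. Of 10, 4 rose and 2 fell at 48 h and 3 rose and 3 fell at 72 h, with medians of 0.14 and -0.02. CTNNA1 (alpha-catenin) rose from 784 ± 17.5 to 969 ± 19.5 CPM at 48 h (log2FC 0.31, adjusted p = 0.0023) and was at 0.35 at 72 h, beside CDH1 moving the other way. CTNNA2 rose (2.16 and 1.70) and the alpha-catenin-like CTNNAL1 fell (-0.61 and -0.84). AFDN (afadin) rose (0.55 and 0.33), with its 72 h call lost without DMSO 72 h replicate 1 (adjusted p = 0.112), DMSO 72 h replicate 2 (0.0607), PRT3789 72 h replicate 1 (0.0579) or PRT3789 72 h replicate 2 (0.0685). None was called at 6 h by edgeR, DESeq2 or limma-voom, and 1 had an unadjusted p under 0.05.

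Intermediate filament genes other than VIM were lower at the later times. Of 16 tested among 17, 9 fell and 2 rose at 48 h and 8 fell and 2 rose at 72 h, with medians of -0.80 and -0.97. KRT8 and KRT18, the keratin pair of simple epithelia, fell from 5147 ± 156 to 2104 ± 89.7 CPM and from 4000 ± 273 to 1571 ± 50.6 CPM at 48 h (log2FC -1.29 and -1.35, adjusted p 1.47e-09 and 7.77e-10). At 72 h they were at -1.36 and -1.43. SYNM (synemin), a filament protein that can assemble with vimentin, was at -1.57 and -1.85, and LMNA, the gene of the A-type nuclear lamins, at -0.93 and -1.17. At 6 h 1 of the 16 was called lower and none higher, a share near the 4.33% of all genes, and DESeq2 also called 1 higher. No filament gene was called lower at 6 h with the length trend removed or with that time alone.

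**Figure D4:**
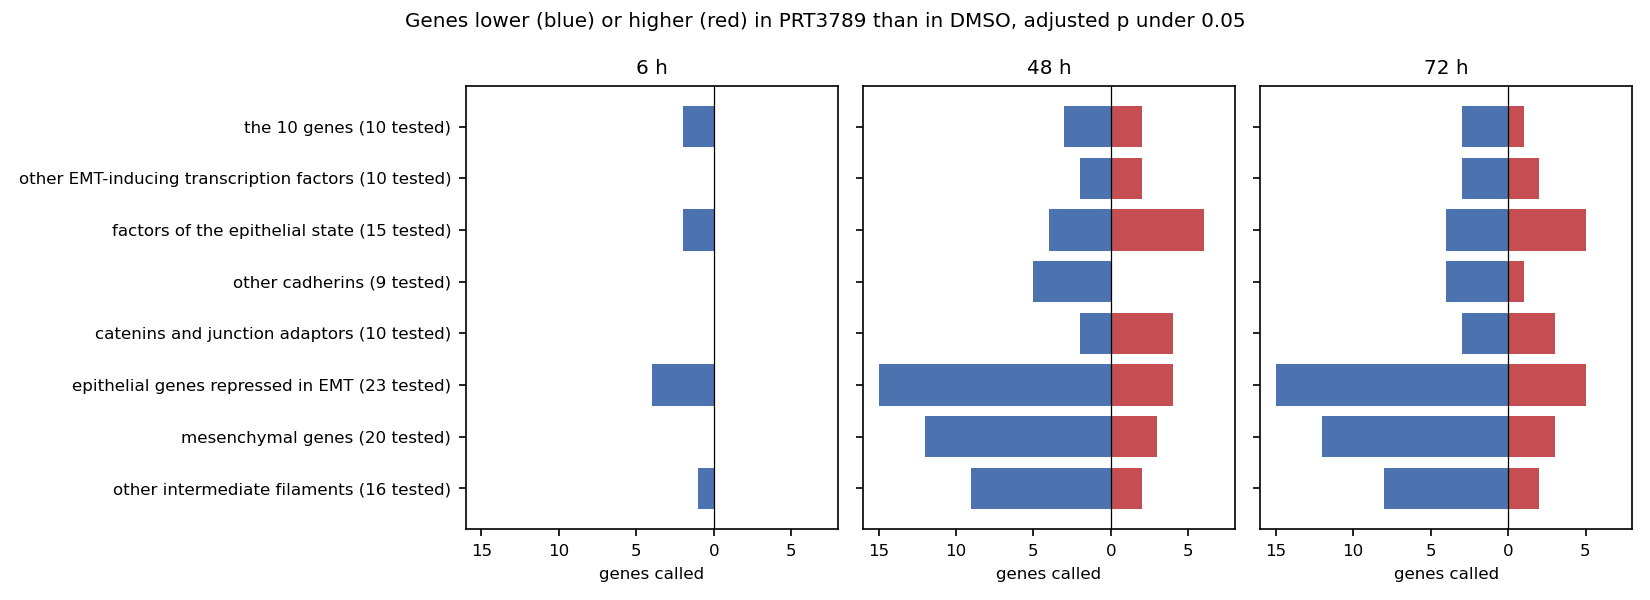
Number of genes called lower (blue, to the left of 0) or higher (red, to the right) in PRT3789 than in DMSO at 6, 48 and 72 h, for the 10 genes and 7 related lists, with the number tested in brackets. At 48 h 15 of 23 epithelial genes and 12 of 20 mesenchymal genes were lower.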

How the data were processed

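The deposited table holds expected counts of RSEM for 43236 gene symbols in 18 libraries. Per the series' design text, the authors ran nf-core/rnaseq 3.17.0, with Trim Galore, STAR and RSEM, on GRCh38 (NCBI, release 110). Versions of the single tools are not given in the sources used here. The deposited expected counts were already whole numbers. Without molecular identifiers, library depth (23154484 to 31094797 counts) speaks to counting error only.

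From these, genes were filtered with filterByExpr (16291 kept, the others held at most 0.0482% of a library), scaled by TMM and tested two-sided in edgeR 4.0.16 (R 4.3.3, robust quasi-likelihood F tests), with one mean per group in one model of all 18 libraries. Adjusted p is Benjamini-Hochberg over all tested genes of a comparison. SE is the log2FC divided by the root of F. For log2 CPM the prior count was 2. Alternatives used DESeq2 1.42.0, limma 3.58.1, other scalings, filters and blocks, libraries left out, and single times.

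Canonical transcript lengths are from GENCODE v44, matched by symbol for 92.1% of tested genes. The replicate numbers were not taken as pairs: over 9 pairs of a number and a time, deviations from the group means correlated between -0.454 and 0.771 across genes. The 10 genes and the lists were chosen with earlier results of these data known. Named list genes are up to 4 per list with the smallest p of the treatment comparisons and a mean of at least 1 CPM. Some genes of the lists are not reported here. Genes of like pattern are the 3 with the highest r, with a mean of at least 5 CPM and no LOC or LINC name.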

Additional observations from a re-analysis of the deposited data

Results flagged for a closer look

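The effect of PRT3789 differed between 6 and 48 h, by an interaction test in edgeR, in 2 of the 10 genes and in 23 of 27 genes named from the related lists, against 19.2% of all tested genes. The 27 were picked for small p-values of the treatment comparisons, so their count is no result about the lists. SNAI2 changed by -1.63 ± 0.16 in log2FC (adjusted p = 8.39e-07) and OVOL2 by -0.72 ± 0.15 (adjusted p = 0.00292). Changes towards a lower value were those of RUNX2 (-1.84), TCF3 (-0.40), GRHL3 (-1.22), CDH3 (-0.91), CDH23 (-1.86), CDH24 (-0.91), CTNNAL1 (-0.46), ST14 (-0.89), SPARC (-2.45), MMP2 (-2.08), TAGLN (-1.94), LOXL2 (-2.01), KRT8 (-1.25), KRT18 (-1.29), SYNM (-1.24) and LMNA (-0.82). CDH5 was at -6.07, a fitted value that depends on the prior count because the PRT3789 libraries of 48 h had 0 to 1 counts. Changes towards a higher value were those of KLF4 (1.84), CTNNA2 (1.86), SOX4 (0.67), ESRP2 (0.64), LSR (0.63) and ELF3 (0.54). ELF3 was lower in PRT3789 at each time, and farther below DMSO at 6 h (log2FC -1.28) than at 48 h (-0.74).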

How the results depend on the processing

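For the 10 genes 1472 of 1509 values under an alternative kept their call, and no called value changed sign. SNAI2, OVOL2 and CDH1 at 48 and 72 h, ZEB1 at 48 h and TWIST1 at 72 h were called in all 16 alternatives. The count lower at 6 h went from 2 to 1 with total counts or an adjusted p under 0.01 and to 0 with that time alone. The count higher at 48 h went from 2 to 1 with that time alone or at 0.01. The count higher at 72 h went from 1 to 2 with total counts, with that time alone and with the replicate block over all groups or within each time (VIM, adjusted p = 0.0474 and 0.0387). The block within each time also raised the count of effects moving lower from 6 to 48 h from 2 to 3 (CDH1, adjusted p = 0.0396), and 5 of 18 libraries correlated best with their own number. In DMSO from 48 to 72 h 1 gene in place of 0 was higher with those times alone. In PRT3789 the count lower from 6 to 48 h went from 2 to 1 without a filter, with at least 1 CPM in 3 libraries (SNAI1 was then not tested), at 0.01 and with the length trend removed, and that higher from 48 to 72 h went from 0 to 1 in DESeq2, with those times alone and with the length trend removed.

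With a library left out, counts ranged from 1 to 2 lower at 6 h, 1 to 2 higher at 48 h, 0 to 1 for a rising and 2 to 3 for a falling effect from 6 to 48 h (VIM without DMSO 48 h replicate 1; CDH1 without DMSO 6 h replicate 1 or PRT3789 6 h replicate 3), 3 to 4 higher from 6 to 48 h in DMSO and 1 to 2 lower over those times in PRT3789. The other counts were the same with any library left out. Removing the length trend was chosen after seeing the data. Over all genes at 6 h, 209 were higher and 496 lower, against 21 and 126 with that time alone, 574 and 509 without DMSO 6 h replicate 1, and 293 and 368 with total counts. Total counts also moved the DMSO calls from 6 to 48 h from 2781 higher and 3278 lower to 3793 and 2090, and those of PRT3789 from 4555 and 4689 to 5477 and 3721. From 48 to 72 h the effect changed in 0 genes, against 125 higher and 169 lower with those times alone, and DMSO had 63 and 25, against 1615 and 1420. SNAI1 had 13 to 30 counts per library, which limits its precision, and CDH2 had 32 to 80 within DMSO at 48 h.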
